A study of Homo sapiens with 6 samples.

Results

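IFITM1, IFITM2, IFITM3, ISG15, RIGI, IFIH1, IRF1, IRF7, IRF9 and BST2, 10 genes of the interferon response, were described in K562 cells labelled ACK KO and WT. They were found by gene symbol among the 19498 genes of a table of normalised counts, and all 10 were present and passed the filter on low values. The study sequenced polyadenylated RNA from 3 biological replicates labelled ACK KO and 3 labelled WT, all of the line K562, a human chronic myeloid leukaemia line that carries the BCR::ABL1 fusion kinase. ACK is a non-receptor tyrosine kinase and effector of the small GTPase Cdc42, encoded by TNK2, and the series concerns transcription that depends on STAT5. Per the labels, the cells of both genotypes were grown in RPMI medium with serum and glutamine and collected beside material for CUT&RUN, with no interferon among the stated treatments. The labels give neither the edit nor the number of clones behind the knockout, so genotype and line or clone cannot be told apart, and the p-values below measure only the spread between these libraries, which may be technical.

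The 10 genes were chosen from the same KO against WT values and replicate values that are given below. Their levels and differences are therefore a description without a test, and tests are given only for other genes.

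Interferons are secreted proteins that bind receptors on the cell surface and act through JAK kinases on transcription factors, STAT2 and IRF9 among them, that bind interferon-stimulated response elements in the promoters of antiviral genes. Interferon gamma acts on promoters with gamma-activated sites, among them that of IRF1. The proteins of the IFITM family sit in cell membranes and hinder the entry of enveloped viruses, and several IFITM genes lie side by side near the end of the short arm of chromosome 11. Many of these genes are also transcribed at a basal level without added interferon.

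Values of a library summed to between 43.5 M and 49.5 M in the KO-labelled libraries and to between 46.7 M and 53.3 M in WT, and the number of reads behind them is unknown. TNK2 itself averaged 615 ± 119 in KO-labelled libraries and 695 ± 118 in WT (SD, n = 3 each), with p = 0.4 in an exact two-sided permutation test whose smallest possible p is 0.1, so its mRNA level does not check the labels. Of 10 markers of K562 and the erythroid lineage, among them GATA1, TAL1 and KLF1, all 10 were measured, with summed levels of 50727 to 63480.5 in KO-labelled libraries and 53249 to 85526 in WT. Among them GATA1 and GFI1B were lower in every KO-labelled library than in every WT library, with 6958 ± 85.5 for GATA1 in KO-labelled libraries and 9213 ± 577 in WT, and 1232 ± 133 for GFI1B in KO-labelled libraries and 1781 ± 97.2 in WT (SD, n = 3 each). Their adjusted p-values (limma) were 0.0637 for GATA1 and 0.0566 for GFI1B, or 0.00256 and 0.00266 under the block. TFRC also passed under the block only, with a log2 difference of -0.52 (adjusted p 0.0121, limma). Of the 10 markers 4 had a log2 difference above 0, among them HBZ with 0.51 and TAL1 with 0.19, and the median was -0.01. Among all tested genes 14.7% were lower in every KO-labelled library than in every WT library. The T and B cell list had 7 of 10 markers measured, with summed levels of 2211 to 3937 in KO-labelled libraries and 1226 to 3570 in WT, mainly from CD3D, CD3G and CD22. The macrophage and dendritic cell list had 3 of 10 measured, with sums of 299 to 1869 in KO-labelled libraries and 1147 to 3781 in WT, mainly from ITGAM, while CD14 reached at most 13.3. ITGAM had 1690.09, 426 and 194 in KO-labelled libraries, against 3712, 1353 and 1088 in WT, lower within each replicate number though the groups overlapped, and the adjusted p (limma) was 0.257, or 0.00115 under the block. ITGAX, the other tested gene of this list, had 175, 42.8 and 101 in KO-labelled libraries, against 55.5, 46.9 and 53.5 in WT. Its log2 difference went the other way at 0.81, with an adjusted p (limma) of 0.408, or 0.109 under the block. The list for fibroblasts, endothelium and epithelium had 7 of 10 measured, with sums of 4708 to 5312 in KO-labelled libraries and 4556 to 5279 in WT, nearly all from EPCAM. Within it the endothelial marker PECAM1 fell to 9.45 ± 5.75 in KO-labelled libraries, against 129 ± 36.6 in WT (SD, n = 3 each; adjusted p 0.00431, limma). The collagen gene COL1A1 rose to 133 ± 65.7 in KO-labelled libraries, against 16.3 ± 14.3 in WT (SD, n = 3 each; adjusted p 0.0334, limma, and 0.123 without KO-labelled replicate 3). The listed markers without a value were not analysed here. The part of these markers and cells in the results below was not tested, and fewer cells of a type and less RNA per cell cannot be told apart in bulk RNA.

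Promoters are shown because the response element is the site through which interferon is known to act on such genes, and it was not used to choose them. RefSeq promoter windows (GRCh38.p14) were matched for 8 of the 10 genes, all but IFITM2 and IRF7. In the 250 bases before the annotated start, the core of the response element (GAAA, any 2 bases, GAAA), read on both strands, was found in 5 of these 8 windows (IFITM1, IFITM3, ISG15, IFIH1 and BST2), and in 3.02% of 35097 windows of that length. The windows of IFITM1 (chr11:313790-314039, plus strand), IFITM3 (chr11:320861-321110, minus strand), ISG15 (chr1:1013247-1013496, plus strand), RIGI (chr9:32526197-32526446, minus strand) and BST2 (chr19:17405631-17405880, minus strand) follow 5′ to 3′ on the strand of the gene, with each match to the core in capitals. The first 3 belong to genes that were lower in every KO-labelled library, RIGI was the gene that was higher in every one, and BST2 overlapped between the genotypes. Of the windows not printed, that of IFIH1 holds the core and those of IRF1 and IRF9 do not, and these genes overlapped too. Whether the core goes with the direction of a difference was not tested.
IFITM1: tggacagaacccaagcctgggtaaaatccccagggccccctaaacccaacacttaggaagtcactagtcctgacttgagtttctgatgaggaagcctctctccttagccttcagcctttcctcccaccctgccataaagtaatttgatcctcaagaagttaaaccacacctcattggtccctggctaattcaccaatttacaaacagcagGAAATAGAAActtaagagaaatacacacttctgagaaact
IFITM3: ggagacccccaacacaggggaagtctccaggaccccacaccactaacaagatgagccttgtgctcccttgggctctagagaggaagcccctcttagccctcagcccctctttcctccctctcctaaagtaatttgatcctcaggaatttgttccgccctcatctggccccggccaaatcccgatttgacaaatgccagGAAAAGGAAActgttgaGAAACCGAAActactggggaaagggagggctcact
ISG15: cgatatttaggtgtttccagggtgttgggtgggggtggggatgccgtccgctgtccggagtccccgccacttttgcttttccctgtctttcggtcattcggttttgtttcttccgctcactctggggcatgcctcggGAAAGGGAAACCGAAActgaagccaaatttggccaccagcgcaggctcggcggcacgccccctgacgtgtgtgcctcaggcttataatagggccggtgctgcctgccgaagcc
RIGI: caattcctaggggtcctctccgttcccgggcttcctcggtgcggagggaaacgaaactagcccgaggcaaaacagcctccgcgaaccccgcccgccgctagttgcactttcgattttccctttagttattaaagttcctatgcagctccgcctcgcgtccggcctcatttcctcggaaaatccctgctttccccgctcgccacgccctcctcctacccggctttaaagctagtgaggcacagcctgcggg
BST2: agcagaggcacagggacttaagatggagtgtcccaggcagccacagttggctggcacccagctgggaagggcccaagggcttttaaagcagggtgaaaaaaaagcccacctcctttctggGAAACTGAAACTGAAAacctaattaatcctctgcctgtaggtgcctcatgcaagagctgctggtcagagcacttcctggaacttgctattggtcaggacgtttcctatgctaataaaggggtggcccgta
IFITM1 has 1 match, 40 to 31 bases before the start, and IFITM3 has 2, the nearer at 35 to 26 bases. ISG15 and BST2 each hold 2 matches that overlap. The RIGI window has no match to these letters, which says nothing about the factors that bind there. The gamma-activated site TTCNNNGAA, the same on both strands, was found in IFITM1, IRF1, IRF9 and BST2, 4 of the 8 windows, and in 6.56% of all windows. In BST2 and IFITM1 both motifs occur, and in BST2 a gamma-activated site overlaps the response element, the only overlap between different motifs in these windows. The looser kappa-B pattern (GGG, any 5 bases, CC), on both strands, was in 7 of the 8 windows and in 54.4% of all windows. A match is a description of letters, not of binding.

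The IFITM genes were lower in the KO-labelled libraries, to very different extents. IFITM2 (ENSG00000185201.16, chromosome 11 from 307631 to 315272, plus strand, GRCh38) had normalised counts of 30.5, 11.7 and 37.5 in KO-labelled replicates 1 to 3, against 1789, 2282 and 2233 in WT replicates 1 to 3. The 3 KO-labelled values lay far below the 3 WT values, and KO-labelled replicate 2 was the lowest of all. The means were 26.5 ± 13.4 in KO-labelled libraries and 2101 ± 272 in WT (SD, n = 3 each), a log2 difference of -6.39 (SE 0.43), or 84.1-fold on the log2(value + 1) scale. Differences within replicate numbers 1, 2 and 3 were -5.83, -7.49 and -5.86.

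IFITM1 (ENSG00000185885.16, chromosome 11 from 313506 to 315272, plus strand), whose protein is found mainly at the cell surface, had 6225, 7771 and 8655 normalised counts in KO-labelled libraries, against 11902, 12663 and 16019 in WT. The groups did not overlap, yet IFITM1 stayed among the most abundant mRNAs in both. Its log2 difference was -0.84 with a standard error of 0.18, with -0.93, -0.70 and -0.89 within replicate numbers 1, 2 and 3. IFITM3 (ENSG00000142089.16, chromosome 11 from 319669 to 327537, minus strand), the member best known for restricting influenza virus from endosomes, was scarce in both genotypes. It had 24.6, 20.04 and 31.6 normalised counts in KO-labelled libraries, against 124, 133 and 107 in WT. These groups did not overlap either, and the log2 difference was -2.23 with a standard error of 0.29.

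**Figure D1:**
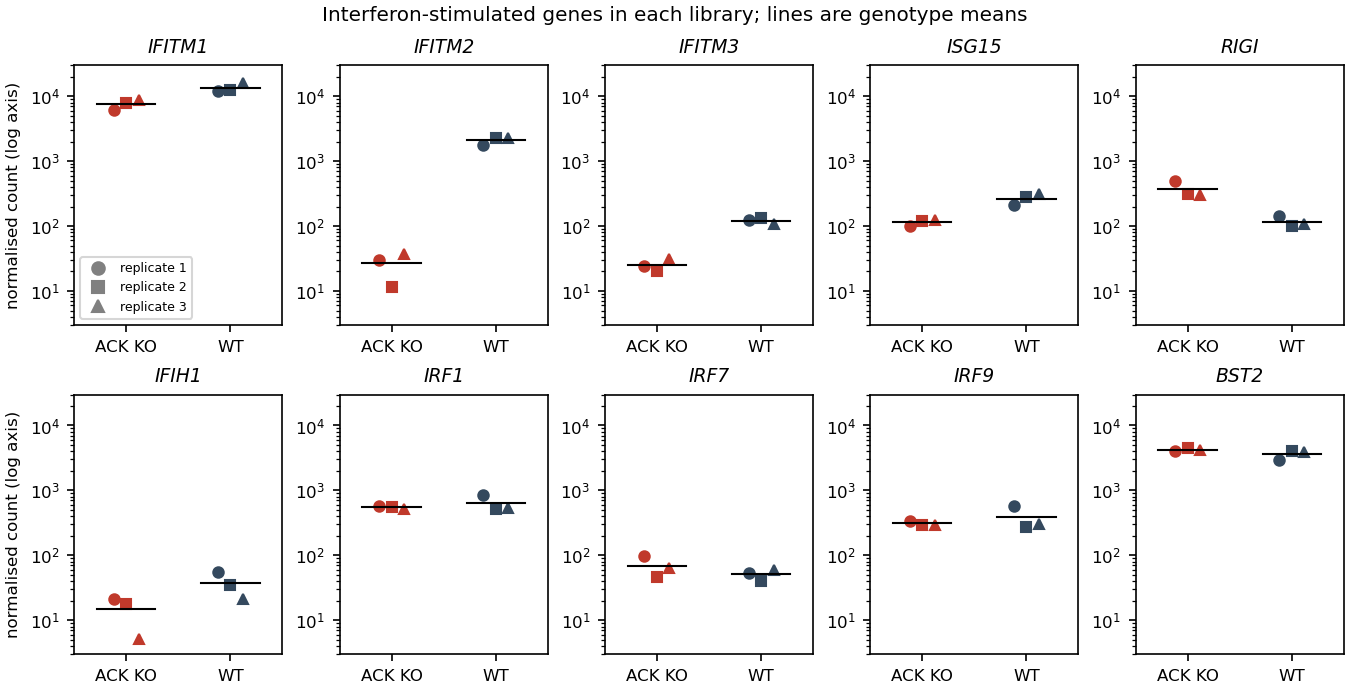
Normalised counts on a log axis for each of the 10 genes, with ACK KO on the left and WT on the right of each panel; symbols are replicate numbers and lines are genotype means (n = 3). IFITM2 lies at 11.7 to 37.5 in the KO-labelled libraries and at 1789 to 2282 in WT, while IFIH1, IRF1, IRF7, IRF9 and BST2 overlap.

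The shares of the 3 genes within their sum differed in the same libraries. IFITM2 amounted to 0.49%, 0.15% and 0.43% of the IFITM1 value in KO-labelled replicates 1, 2 and 3, against 15.03%, 18.02% and 13.9% in WT replicates 1, 2 and 3. IFITM1 made up 99.3% ± 0.251 of the summed value of the 3 genes in KO-labelled libraries and 85.8% ± 1.66 in WT (SD, n = 3 each). The sum was 7603 ± 1234 in KO-labelled libraries and 15751 ± 2346 in WT (SD, n = 3 each), a log2 difference of -1.05. This sum is the safer value for the family, because reads from sequence that these genes share can be split among them. Of the distinct 31-base words of the GENCODE 29 transcripts of IFITM2, 22.9% are also in IFITM1 transcripts and 22.1% in IFITM3 transcripts. For IFITM1, 31% of its words are in IFITM2 transcripts and 12.7% in IFITM3 transcripts. For IFITM3, 23.9% are in IFITM2 transcripts and 56.0% are in transcripts of other genes in all, so the values of IFITM2 and IFITM3 are uncertain to that extent. The annotated IFITM2 gene also spans IFITM1 whole, since it ends at the same base. In the KO-labelled libraries at most 37.5 normalised counts were assigned to IFITM2 beside at least 6225 assigned to IFITM1.

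Genes around the IFITM cluster had a median difference near 0. Within 250 kb there were 24 other tested genes, 16 of them protein-coding, with a median log2 difference of 0.09. With edges of the cluster at 0, the nearest protein-coding neighbours were PGGHG, 11.5 kb away, with a log2 difference of -0.42 (SE 0.16) and B4GALNT4, 42.3 kb away on the other side, with 0.60 (SE 0.17). Their adjusted p-values (limma, Benjamini-Hochberg) were 0.176 and 0.0719, and 0.00409 and 0.0101 with the replicate number as a block. The only neighbour that passed an adjusted p of 0.05 was the antisense gene ENSG00000255026, 18.6 kb away, with 14.3 ± 7.68 normalised counts in KO-labelled libraries and 64.6 ± 11.1 in WT (SD, n = 3 each). It fell with an adjusted p of 0.0366 (limma), which was 0.147 without WT replicate 3, and with the block 12 of the 24 neighbours passed. Of all tested genes 10.3% passed without the block and 39.7% with it. ANO9, a membrane protein gene 90.4 kb away, averaged 47.3 ± 37.99 in KO-labelled libraries and 181 ± 70.4 in WT (SD, n = 3 each), and the adjusted p (limma) was 0.122, or 0.00426 under the block. The kit marks strand, but no source used here says whether counting used it, so antisense genes are uncertain. The median of all 16658 tested genes was -0.02.

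**Figure D2:**
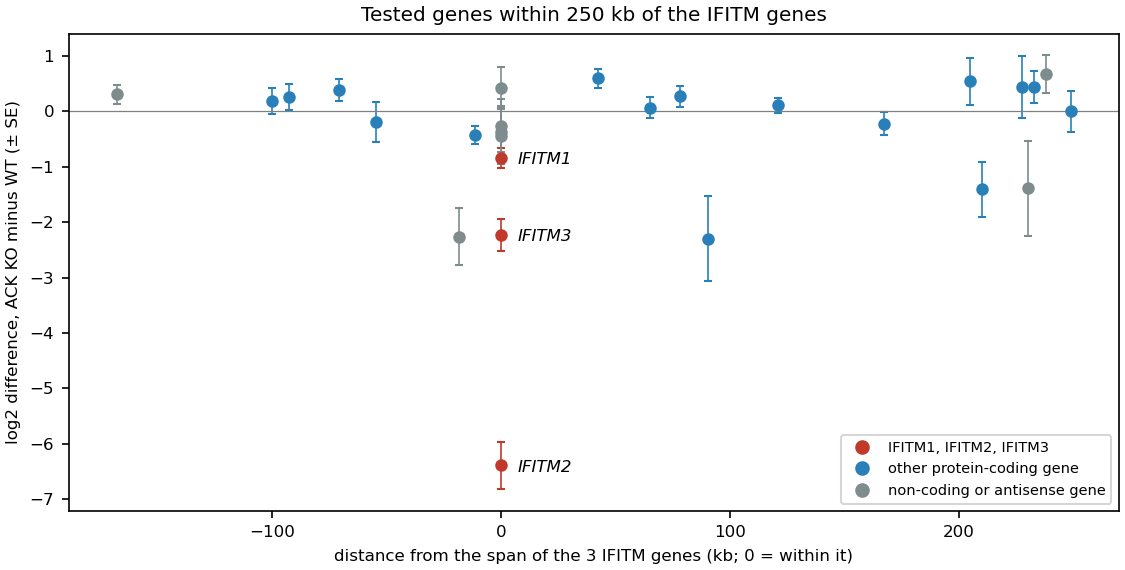
Log2 difference (ACK KO minus WT, with its standard error) of the tested genes within 250 kb, against distance in kb from the span of the 3 IFITM genes. IFITM2 stands at -6.39 and IFITM3 at -2.23, while the 24 other genes have a median of 0.09.

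Of the effectors outside the IFITM family, ISG15 was lower in every KO-labelled library and BST2 overlapped between genotypes. ISG15 (ENSG00000187608.10, chromosome 1 from 1001138 to 1014540, plus strand) encodes a ubiquitin-like protein that is attached to other proteins and also secreted. It had 101, 119.996 and 123 normalised counts in KO-labelled libraries, against 210.02, 277 and 310.3 in WT. Every KO-labelled library lay below every WT library, with a log2 difference of -1.19 (SE 0.24). BST2 (ENSG00000130303.13, chromosome 19 from 17402939 to 17405648, minus strand) encodes tetherin, which holds budding virions at the cell surface. It had 3987, 4525 and 4152 in KO-labelled libraries, against 2981, 4099.98 and 3956 in WT. The groups overlapped, only WT replicate 1 standing clearly lower than the rest, and the log2 difference was 0.21 with an interval from -0.16 to 0.58 (95%).

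Of the cytosolic RNA sensors RIGI and IFIH1, RIGI was higher in every KO-labelled library and IFIH1 overlapped between genotypes. RIGI (ENSG00000107201.10, chromosome 9 from 32455705 to 32526324, minus strand) encodes the sensor of short double-stranded RNA with a triphosphate end. It had 503, 317 and 297 normalised counts in KO-labelled libraries, against 143, 101 and 109 in WT. It was the 1 gene of the 10 with every KO-labelled library above every WT library, and it averaged 372 ± 113 in KO-labelled libraries and 117 ± 22.3 in WT (SD, n = 3 each), 3.10-fold apart with a log2 difference of 1.63 (SE 0.28). Its 5 tested neighbours within 250 kb had a median log2 difference of -0.13. IFIH1 (ENSG00000115267.8, chromosome 2 from 162267079 to 162318703, minus strand) encodes MDA5, the sensor of long double-stranded RNA, and was the scarcest of the 10. It had 21.4, 17.9 and 5.21 in KO-labelled libraries, against 55.8, 35.2 and 21.2 in WT. The groups met at KO-labelled replicate 1 and WT replicate 3, although each KO-labelled value was below the WT value of the same number. The log2 difference was -1.37 with a standard error of 0.61, and -0.79 without KO-labelled replicate 3.

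The transcription factor genes IRF9, IRF1 and IRF7 each overlapped between genotypes. IRF9 (ENSG00000213928.8, chromosome 14 from 24161053 to 24166565, plus strand), the DNA-binding partner of STAT2, had 341, 297 and 292 normalised counts in KO-labelled libraries, against 569, 277 and 305 in WT. IRF1 (ENSG00000125347.14, chromosome 5 from 132481609 to 132490798, minus strand), a factor induced by interferon gamma, had 585, 559 and 509.5 in KO-labelled libraries, against 864, 513 and 532 in WT. In both genes WT replicate 1 stood above the other 5 libraries. Their log2 differences were -0.23 (SE 0.30) and -0.17 (SE 0.24), and without WT replicate 1 they were 0.09 and 0.08, so no direction can be given. IRF7 (ENSG00000185507.21, chromosome 11 from 612553 to 615999, minus strand), which drives interferon alpha genes once activated, had 98.8, 46.7 and 62.9 in KO-labelled libraries, against 53.1, 39.7 and 59.8 in WT, with 0.39 as its log2 difference (SE 0.36). On chromosome 5, where IRF1 lies, the 693 tested genes had -0.62 as their median, so IRF1 stood 0.46 above its chromosome, while its 11 tested neighbours within 250 kb had a median of 0.10. Of the 31-base words of IRF1 and IRF9 transcripts, 28.5% and 50.3% also occur on either strand in transcripts of other genes that overlap or share repeats, which makes both values uncertain.

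Of the 10 genes, 4 had every KO-labelled library below every WT library, 1 had every one above, and 5 overlapped. Among all tested genes the genotypes did not overlap for 30.0%, 15.2% above and 14.7% below. The median log2 difference of the 10 was -0.54, and 7 were below 0. Since the 10 were chosen from these values, nothing is read from the counts. Between replicate numbers the difference changed sign for IRF1 and IRF9, and in number 3 it was only 0.07 for both IRF7 and BST2.

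**Figure D3:**
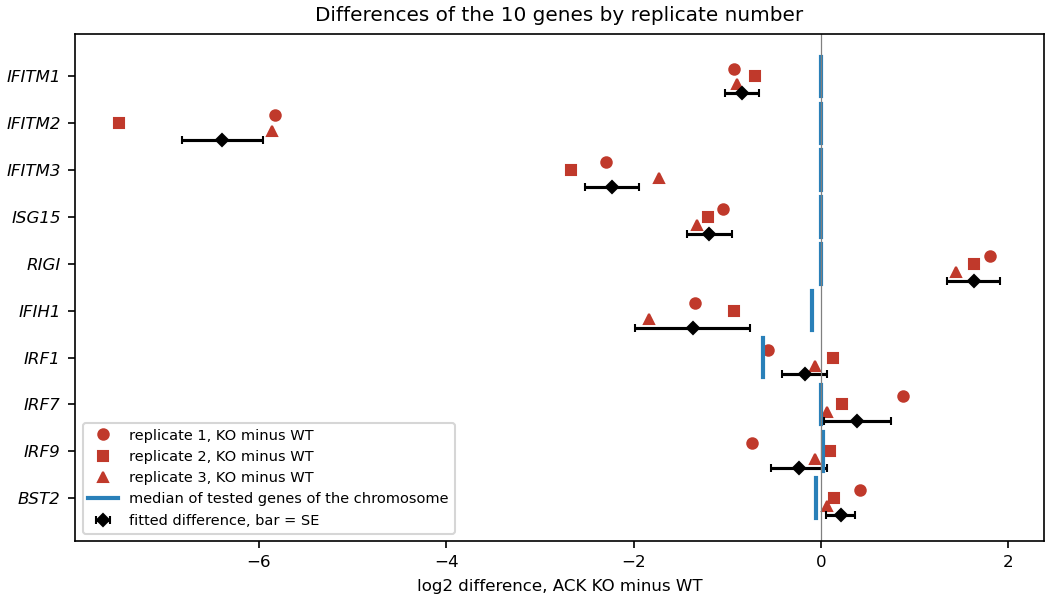
Log2 differences (ACK KO minus WT) of the 10 genes within replicate numbers 1, 2 and 3, with the fitted difference and its standard error and the median of the tested genes of the same chromosome. IFITM2 reaches -7.49 in replicate 2, RIGI lies at 1.44 to 1.81, and for IRF1 the chromosome median of -0.62 lies apart from 0.

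Levels between genes were compared per kb of exon, as normalised counts divided by the summed length of all annotated exons of the gene. In KO-labelled libraries the order was IFITM1 (6991 per kb), BST2 (3772), ISG15 (122), RIGI (85.5), IRF9 (81.7), IRF1 (70.7), IRF7 (26.4), IFITM3 (18.9), IFITM2 (17.2) and IFIH1 (2.91). Neighbours in this order whose libraries overlapped were ISG15 with RIGI, RIGI with IRF9, IRF7 with IFITM3, and IFITM3 with IFITM2. In WT the order was IFITM1 (12526 per kb), BST2 (3288), IFITM2 (1362), ISG15 (282), IRF9 (101), IFITM3 (90.01), IRF1 (81.6), RIGI (26.9), IRF7 (19.4) and IFIH1 (7.32), where IRF9 overlapped with IFITM3 and IFITM3 with IRF1. IFITM2 stood at percentile 16.7 of tested genes in KO-labelled libraries and at percentile 91.1 in WT. IFITM1 stood at percentile 99.0 in KO-labelled libraries and 99.5 in WT, and BST2 at 97.8 in KO-labelled libraries and 97.1 in WT. On this scale IFITM1 and BST2 mRNA was abundant, while RIGI, IFIH1 and the IRF genes stayed below the middle of the range in both genotypes. The rank depends on the summed exon length, which was 7799 bases for IRF1 and 3794 for IRF9. A gene whose mRNA is shorter than that sum is ranked too low.

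Replicate 1 stood apart from replicates 2 and 3 in both genotypes for most of the 10 genes. RIGI, IFIH1, IRF1 and IRF9 were highest in replicate 1 of both genotypes, 4 of the 10, against 34.4% of all tested genes. IFITM1, ISG15 and BST2 were lowest in replicate 1 of both, 3 of the 10, against 33.3% of all tested genes. Both shares lay near those of the whole table, and IFITM2, IFITM3 and IRF7 were in neither group. The deviations on the log2 scale for RIGI were 0.47 in KO-labelled replicate 1 and 0.30 in WT replicate 1. Those of ISG15 were -0.18 in KO-labelled replicate 1 and -0.32 in WT replicate 1. IFIH1 had the widest spread, from 0.70 to -1.15 among KO-labelled libraries and from 0.67 to -0.69 in WT. The 4 libraries of replicates 2 and 3, set apart once these deviations were known, gave a log2 difference of -6.68 for IFITM2, -0.80 for IFITM1, -2.20 for IFITM3, -1.26 for ISG15 and 1.54 for RIGI.

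**Figure D4:**
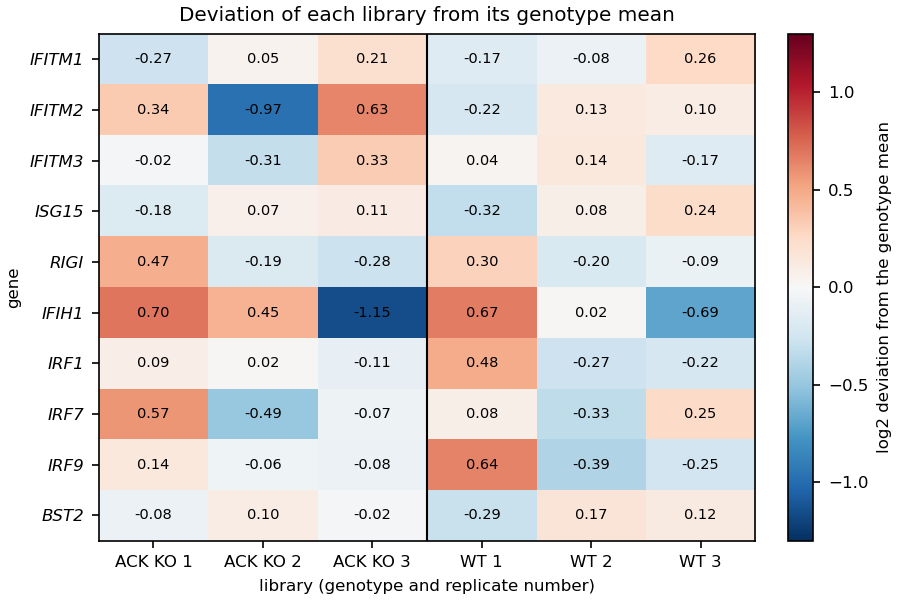
Deviation of each library from the mean of its genotype on the log2(value + 1) scale, with ACK KO replicates on the left and WT replicates on the right. Replicate 1 is positive for RIGI, IFIH1, IRF1 and IRF9 in both genotypes and negative for IFITM1, ISG15 and BST2.

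Other genes of the interferon pathway were tested as lists of which none of the 10 is a member. Of 152 genes listed, 104 were measured and 98 passed the filter on low values, and the 48 listed genes without a value, among them all 15 interferon ligand genes, were not analysed here. Across these 98 genes 8 rose, 2 fell and 88 did not pass an adjusted p of 0.05 (limma, Benjamini-Hochberg over all tested genes), against 10.3% of all tested genes that passed, 5.37% higher and 4.96% lower in KO-labelled libraries. With the replicate number as a block 25 rose and 27 fell, against 39.7% of all tested genes, 19.7% higher and 20% lower. The 10 calls without the block are a share near that of the whole table. The median log2 difference of the 98 genes was -0.08, and 43 of them did not overlap between genotypes, 22 above and 21 below, against 30.0% of all tested genes. The lists were chosen with earlier results of these data known, so nothing is read from that count. Of the 10 calls, 9 were lost in at least 1 of the 6 fits that left out a library, STING1 being the exception. Without the intensity trend 5 genes rose and 4 fell.

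Receptors and signal carriers included JAK1, a kinase that serves interferon receptors. JAK1 rose 1.72-fold to 5243 ± 404 in KO-labelled libraries, against 3040 ± 69.9 in WT (SD, n = 3 each), with an adjusted p of 0.00789 and of 0.0545 without KO-labelled replicate 3 (limma). Tested genes within 2 Mb of JAK1 had a median log2 difference of 0.68, beside 0.78 for JAK1 itself. The other 10 measured members did not pass. With the block 3 members rose and 3 fell. IFNGR1, a chain of the interferon gamma receptor, averaged 1434 ± 366 in KO-labelled libraries and 2237 ± 525 in WT (SD, n = 3 each), and the adjusted p (limma) was 0.156, or 7.46e-04 under the block. IFNLR1, IFNAR1 and IFNGR2 had log2 differences of -1.42, 0.31 and 0.28 and passed with the block only. STAT2, named after its values were seen, had a log2 difference of -0.01 (SE 0.22).

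Sensors and adaptors downstream or beside RIGI moved in both directions, with 2 rises and 1 fall among 12 tested genes, and 3 rises and 4 falls with the block. MAVS, the mitochondrial adaptor that relays the signals of RIG-I and MDA5, rose 1.59-fold to 11462 ± 297 in KO-labelled libraries, against 7290.07 ± 1182 in WT (SD, n = 3 each), with an adjusted p of 0.0311 and of 0.137 without WT replicate 3 (limma). On chromosome 20, where MAVS lies, the median was 0.54, beside 0.66 for MAVS itself. IFI16, a nuclear DNA sensor, had 545, 177 and 210.3 in KO-labelled libraries, against 56.7, 40.8 and 38.7 in WT. It rose 5.99-fold with an adjusted p of 0.0156 and of 0.0730 without WT replicate 3 (limma), and KO-labelled replicate 1 was far above the other 2. STING1, the adaptor of cyclic GMP-AMP signalling, fell 2.45-fold to 1653 ± 266 in KO-labelled libraries, against 4039 ± 451 in WT (SD, n = 3 each). Its adjusted p was 0.00419, and at most 0.0306 without 1 library (limma). STING1 lies on chromosome 5, where genes within 2 Mb of it had a median log2 difference of -0.61, against -1.29 for STING1. TRIM25, the ubiquitin ligase known as an activator of RIG-I, had 4659, 1532 and 1365 in KO-labelled libraries, against 11002, 5971 and 6252 in WT, and the adjusted p (limma) was 0.0695, or 2.80e-04 under the block. DHX58, the RIG-I-like protein without a signalling domain, averaged 10.6 ± 0.883 in KO-labelled libraries and 19.6 ± 2.91 in WT (SD, n = 3 each) with an adjusted p of 0.193 (limma).

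None of the 5 tested genes of the other IRF family list and none of the 5 of ISG15 conjugation passed without the block. IRF2, a factor that competes with IRF1 for its sites, averaged 366 ± 20.5 in KO-labelled libraries and 616 ± 176 in WT (SD, n = 3 each), and the adjusted p (limma) was 0.12, or 0.0125 under the block. IRF2BP1 and IRF2BP2, partners of IRF2, had log2 differences of 0.29 and 0.41 and passed with the block only, while IRF2BPL and IRF3 had -0.20 and 0.13 and did not. Among the enzymes that attach or remove ISG15, the E1 gene UBA7 averaged 18.4 ± 8.19 in KO-labelled libraries and 49.1 ± 24.05 in WT (SD, n = 3 each), with adjusted p-values of 0.147 and 0.0122 with the block (limma). USP18, the protease that removes ISG15, averaged 92.7 ± 25.3 in KO-labelled libraries and 172 ± 28.6 in WT (SD, n = 3 each), with 0.109 and 0.0186 with the block (limma). The E2 gene UBE2L6 had values of 1038, 371 and 289.8 in KO-labelled libraries, against 1257, 339 and 309.99 in WT, with replicate 1 far above the others in both genotypes. The ligases HERC5 and ARIH1 had log2 differences of 0.23 and 0.28, and ARIH1 passed with the block only.

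The effector list had 46 tested genes, of which 4 rose, 1 fell and 41 did not pass, and 12 rose and 10 fell with the block. BATF2, an interferon-induced transcription factor gene, rose 4.06-fold to 135 ± 23.7 in KO-labelled libraries, against 32.8 ± 7.88 in WT (SD, n = 3 each; adjusted p 0.00917, limma). IFI30, which encodes a lysosomal thiol reductase, rose 3.13-fold to 1318 ± 223 in KO-labelled libraries, against 434 ± 141 in WT (SD, n = 3 each; adjusted p 0.0159, limma). PARP12 rose 1.85-fold (adjusted p 0.00942) and lies on chromosome 7, where genes within 2 Mb had a median log2 difference of 0.43, against 0.89 for PARP12, and LY6E rose 1.5-fold (adjusted p 0.0465, limma). APOBEC3G, a cytidine deaminase gene that restricts retroviruses, fell 3.62-fold to 101 ± 43.7 in KO-labelled libraries, against 351 ± 58.996 in WT (SD, n = 3 each; adjusted p 0.0198, limma). Without KO-labelled replicate 3 the adjusted p (limma) became 0.0585 for BATF2, 0.0819 for IFI30, 0.0861 for APOBEC3G and 0.191 for LY6E, and without WT replicate 3 it became 0.0579 for PARP12. The paralogs of APOBEC3G are alike in sequence, so its value is uncertain. Chosen after their values were seen, the classical effectors EIF2AK2 and ADAR had log2 differences of -0.07 each, and IFIT1, IFIT2 and IFIT3 had -0.28, -1.07 and -0.43. RSAD2, IFI6, OAS3 and CMPK2, chosen likewise, went the other way with 0.52, 0.78, 0.43 and 0.47. IFIT1 and IFIT2 were scarce, averaging 14.5 and 23.8 in KO-labelled libraries. IFIT2, RSAD2 and CMPK2 passed with the block (adjusted p 0.0360, 0.0270 and 0.0203, limma), and IFIT1, IFIT3, IFI6 and OAS3 did not. The list thus showed no common direction, with 22 of 46 log2 differences above 0 and a median of -0.06, against -0.02 for all tested genes.

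Of 11 tested genes of interferon gamma and IRF1 output none passed, and 3 rose and 4 fell with the block. WARS1, the tryptophanyl-tRNA synthetase gene, averaged 35025 ± 10771 in KO-labelled libraries and 22002 ± 12240 in WT (SD, n = 3 each), and the adjusted p (limma) was 0.3, or 0.00214 under the block. Tested genes within 2 Mb of WARS1 had a median log2 difference of 0.61, beside 0.76 for WARS1 itself. TAP2, PSMB9 and TAPBP, genes of antigen processing, had log2 differences of 0.35, -0.75 and -0.36 and passed with the block only. Among 10 brakes on interferon signalling TRIM24 rose 1.39-fold to 8568 ± 749 in KO-labelled libraries, against 6169 ± 46.6 in WT (SD, n = 3 each), with an adjusted p of 0.0482 and of 0.204 without KO-labelled replicate 3 (limma). It lies on chromosome 7, and genes within 2 Mb of it had a median log2 difference of 0.47, the same as TRIM24. The other 9 did not pass. With the block 2 of the 10 rose, TRIM24 and SOCS1, and 4 fell. SOCS1, an inhibitor of JAK kinases, had a log2 difference of 0.49 with 0.222 and 0.0286 with the block, and PTPN2, a phosphatase that acts on JAK kinases, had -0.30 with 0.183 and 0.0135 with the block (adjusted p, limma). PIAS3 had 0.35 and did not pass in either fit.

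**Figure D5:**
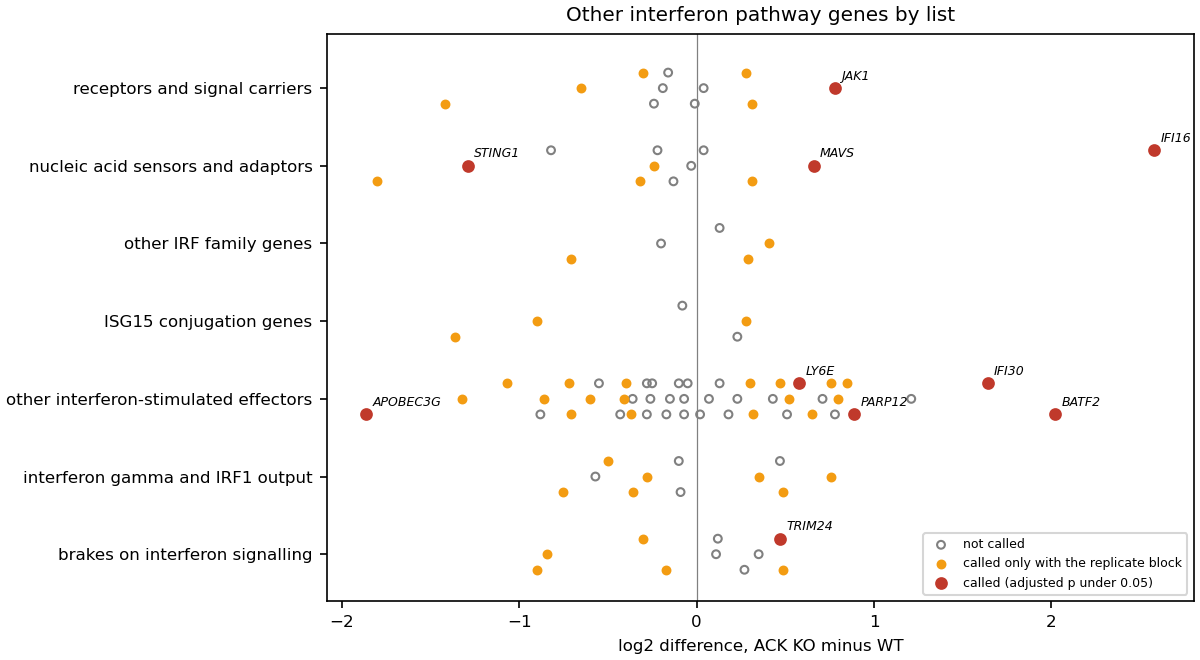
Log2 differences (ACK KO minus WT) of the tested genes of 7 pathway lists, marked by whether they passed an adjusted p of 0.05 without the replicate block, with it only, or in neither fit. The 10 named points are the calls without the block, 8 above 0 and 2 below, and each list that has calls with the block has them on both sides of 0.

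The genes whose levels followed the IFITM genes most closely were sought among 12159 other genes with a mean of 100 or more, by Pearson correlation of log2 values over the 6 libraries. TMEM156, GNAI1 and MAGEB16 came nearest to IFITM2, with r of 0.999, 0.999 and 0.998. GNAI1, which encodes an inhibitory G protein subunit, averaged 13.5 ± 6.18 in KO-labelled libraries and 872 ± 126 in WT (SD, n = 3 each). HCLS1, PMP22 and SMAD5 came nearest to IFITM3, with r of 0.997, 0.994 and 0.994, and HCLS1, a haematopoietic actin regulator gene, averaged 6.76 ± 4.895 in KO-labelled libraries and 895 ± 13.3 in WT (SD, n = 3 each). ARSK, GK5 and CHML came nearest to IFITM1, with 0.996, 0.994 and 0.992. These r values describe 6 libraries that fall into 2 genotypes and share that contrast, and none of the 9 genes belongs to the pathway lists.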

How the data were processed

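RNA of 3 KO-labelled and 3 WT libraries was analysed. Per gene, the deposited table holds a signal that its name calls normalised counts, neither whole numbers nor logarithms, and how the authors normalised them is not stated. Per the submitters' processing notes, STAR 2.7.2b, Salmon 1.1.0, SAMtools, FastQC 0.11.7, R 3.6.1, DESeq2 1.26.0 and GRCh38 were used, with roles not given in the sources used here. Intervals come from the spread between libraries, and since read depth is unknown, counting error was not modelled apart from it. Symbols came from a name table (19392 of 19498 genes) and positions and exon lengths from GENCODE 29 (19112 genes), matched by gene ID.

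With limma 3.58.1 (R 4.3.3) and an intensity trend, log2(value + 1) was tested for 16658 genes with 10 or more in at least 3 of 6 libraries, Benjamini-Hochberg adjusted over all of them at 0.05. The script was tested on simulated data. Differences are KO-labelled minus WT, and a fold is the fitted log2 difference on a linear scale. The members and lists were chosen with earlier results of these data known. Named genes are the 10 members, TNK2, up to 5 genes of each list by smallest p, IFITM neighbours within 250 kb and the 3 genes most like each IFITM gene, and others are said to be chosen later. Deviations from the group mean correlated between same-numbered KO-labelled and WT libraries at 0.699, 0.521 and 0.342 (numbers 1 to 3). Each was above 0.1, so the number was used as a block in a second fit. Numbers 2 and 3 also correlated across, at 0.281 (KO-labelled 3 with WT 2) and 0.257 (KO-labelled 2 with WT 3). Pairs of number 1 with another number lay between -0.594 and -0.418. The match within numbers 2 and 3 is thus less certain than that of number 1, and calls under the block rest on it. The block leaves the log2 differences as they are.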

Additional observations from a re-analysis of the deposited data

How the results depend on the processing

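Without a block 1721 genes passed in the whole table and 10 of the pathway lists. With the replicate number as a block these were 6612 and 52, and without both replicate 1 libraries, a choice made after they were seen to stand apart, 4731 and 30. Leaving out 1 library gave 726 to 2183 genes in the table and 1 to 11 in the pathway lists. The lowest counts were those without KO-labelled replicate 3 (726 and 1) and without WT replicate 3 (748 and 3), and without KO-labelled replicate 2 and WT replicate 2 they were 929 and 5, and 921 and 5. Pseudocounts of 0.5 and 5, no filter, no intensity trend and both rescalings gave 1599 to 1773 genes and 9 or 10 of the pathway. Of the pathway, 8 rose and 2 fell, but 5 rose and 4 fell without the trend, where the adjusted p (limma) was 0.0660 for MAVS, 0.0885 for LY6E, 0.105 for TRIM24 and, now passing, 0.0362 for DHX58. A further gene of the effector list, whose p is not given here, also fell without the trend. With no filter 6 rose and 3 fell, with 0.0530 for LY6E and 0.0561 for TRIM24. There a gene of the interferon gamma and IRF1 output list, whose p is not given here, newly passed. Scaling libraries to equal sums moved the median of all genes to 0.08, against -0.02, and the share of higher calls to 61.6%, against 51.9%, with none of the 10 genes changing sign. Of 133 recomputed log2 differences of the 10 genes, 126 kept their sign and moved by less than the spread between replicates. The 133 include the fits with the block, which cannot change a log2 difference. They also include scaling by median ratios, which left each value the same as rounded. IRF1 changed sign to 0.46 relative to the median of its chromosome, to 0.08 without WT replicate 1 and to 0.03 without both replicate 1 libraries. Leaving out 1 library gave -0.30 to 0.08 for IRF1 and -0.43 to 0.09 for IRF9. IRF9 changed sign to 0.09 and 0.02 without WT replicate 1 and without both replicate 1 libraries. For IFITM2 and IFITM3 the log2 difference of the summed family, -1.05, stood apart from their own. Read depth is unknown, so it cannot be said which low values, such as those of IFIH1, lie near the limit of detection.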

Other observations

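BISPR, a long non-coding RNA gene that starts beside BST2 on the opposite strand, was singled out after its values were seen. It had 468, 337 and 417 normalised counts in KO-labelled libraries, against 793, 626 and 679 in WT, so that the groups did not overlap, while those of BST2 did. Its log2 difference was -0.78 (SE 0.19), and the adjusted p (limma) was 0.0503, or 0.00173 under the block. IRF1-AS1, which overlaps IRF1 on the other strand, had a log2 difference of 0.11 (SE 0.38), beside -0.17 for IRF1. The difference between each pair of neighbours was not tested.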
